A study of Mus musculus with 25 samples.

Results

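The expression of 10 genes of the hypoxia-inducible factor (HIF) system was followed in hepatoblastomas (HBs) and livers of FVB mice. They are the alpha subunits Hif1a and Epas1, the beta subunit Arnt, the prolyl hydroxylases Egln1, Egln2 and Egln3, and the targets Vegfa, Car9, Bnip3 and Ankrd37. The genes were chosen by name, and each was found once among the 36333 genes of the deposited read count table. Of the 25 samples of the series 20 were analysed. DDDA HBs were tumors of mice fed a diet with 10% dodecanedioic acid (DDDA), a dicarboxylic acid broken down in peroxisomes, and standard diet HBs came from mice on a standard diet. All HBs had been induced with Sleeping Beauty vectors, delivered by hydrodynamic injection, for a β-catenin deletion mutant, Δ(90), and the S127A mutant of YAP, an effector of Hippo signaling, so each tumor grew from liver cells that took up the vectors. DDDA livers and standard diet livers came from mice with no injection. Each of these 4 groups had 5 libraries. The sample labels give 3 to 4 weeks of DDDA, the study's results text gives 3, and RNA was taken from tumor regions that looked healthy. The labels give no ages, and by the study's methods the mice with HBs were young adults when injected. A further 5 HBs of long-term DDDA were not analysed here.

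A HIF is a pair of an oxygen-regulated alpha subunit and a stable beta subunit. In the presence of oxygen, prolyl hydroxylases modify the alpha subunit, the von Hippel-Lindau protein binds it and it is degraded. When oxygen falls the alpha subunit persists and the pair binds short DNA elements with the core ACGTG or GCGTG. This control acts on the protein, and the data here are mRNA levels. Egln3 and Egln1 are themselves HIF targets, and in liver HIF activity is highest around the central vein, where oxygen is lowest.

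Promoter sequences are shown for the members that were called with the diet (Hif1a, Egln3 and Bnip3) and for Ankrd37, which varied most between HBs. They are the 250 bases before the RefSeq start site on GRCm38.p6, 5′ to 3′ on the strand of the gene. Capitals mark ACGTG and GCGTG on either strand. Overlapping matches on the 2 strands run together. The windows are chr12:73907617-73907866 on the plus strand for Hif1a, chr12:54203875-54204124 on the minus strand for Egln3, chr7:138909507-138909756 on the minus strand for Bnip3 and chr8:45999851-46000100 on the minus strand for Ankrd37.
Hif1a: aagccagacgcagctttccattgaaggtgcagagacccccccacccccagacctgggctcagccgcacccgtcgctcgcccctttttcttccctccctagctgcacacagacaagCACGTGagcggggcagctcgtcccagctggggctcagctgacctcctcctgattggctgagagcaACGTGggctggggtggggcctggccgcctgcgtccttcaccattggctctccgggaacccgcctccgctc
Egln3: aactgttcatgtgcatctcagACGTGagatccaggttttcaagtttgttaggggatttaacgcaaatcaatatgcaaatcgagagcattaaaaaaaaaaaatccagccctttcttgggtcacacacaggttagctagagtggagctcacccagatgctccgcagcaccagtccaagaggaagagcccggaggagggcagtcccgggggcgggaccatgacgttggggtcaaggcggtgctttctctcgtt
Bnip3: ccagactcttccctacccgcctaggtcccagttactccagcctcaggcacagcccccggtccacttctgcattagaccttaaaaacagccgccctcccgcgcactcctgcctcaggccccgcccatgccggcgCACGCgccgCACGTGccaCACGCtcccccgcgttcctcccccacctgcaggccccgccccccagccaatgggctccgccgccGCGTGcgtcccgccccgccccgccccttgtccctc
Ankrd37: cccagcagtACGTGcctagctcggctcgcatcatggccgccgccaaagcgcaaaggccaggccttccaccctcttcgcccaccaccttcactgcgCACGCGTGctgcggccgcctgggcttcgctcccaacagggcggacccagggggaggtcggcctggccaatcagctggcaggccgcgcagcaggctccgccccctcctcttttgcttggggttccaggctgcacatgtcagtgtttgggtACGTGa

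The Bnip3 window held 5 matches, 2 of ACGTG and 3 of GCGTG, and the Ankrd37 window 4, 2 of each. The Hif1a window held 3 matches of ACGTG. In the Hif1a and Bnip3 windows 2 matches are a single CACGTG read on both strands, and in the Ankrd37 window 2 matches overlap in CACGCGTG. The Hif1a and Ankrd37 windows lie inside the gene as the count table bounds it, since start sites differ between transcripts. The Egln3 window held 1 match of ACGTG. Windows were given for 9 of the 10 members, Epas1 being the one without, and Egln2 and Vegfa had 2 windows each. The second windows of Egln2 and Vegfa also lie inside the gene. Of these 11 windows 10 held a match, and the first window of Vegfa held none. Among all 32851 windows of this length 38.6% held a match, 16.6% for ACGTG and 28.2% for GCGTG. G and C made up 48.0% (second Egln2 window) to 86.0% (Egln1 window) of the member windows. The shares over all windows were not matched for this, so the 2 counts are not a test of enrichment. A match is a description of the letters and not a binding site.

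The libraries held 16548771 to 29783324 counts each. No flow cell held libraries of both diets, so diet and flow cell cannot be told apart. By the column names, no lane held libraries of both tissues within a diet, so tissue and lane cannot be told apart either. Hepatocyte markers (10 genes) summed to 22994 to 52127 CPM (counts scaled to library size) in DDDA HBs, 23163 to 42030 in standard diet HBs, 81355 to 142770 in DDDA livers and 94338 to 140326 in standard diet livers. Hepatoblastoma markers (13 genes) summed to 1158 to 4886 CPM in DDDA HBs (median 1242) and 1500 to 6210 in standard diet HBs (median 2805). Livers had 855 to 1021 CPM on DDDA and 787 to 952 on the standard diet. Median cholangiocyte sums were 102 CPM in DDDA HBs and 416 in standard diet HBs, and median stellate cell and fibroblast sums 175 and 368. The median hepatocyte sum was higher in DDDA HBs, at 38614 against 28191 CPM. The part of these differences in the diet comparison of HBs was not tested. Library DT2264, a DDDA HB, stood apart from the others, with 3069 CPM of stellate cell and fibroblast markers, against 63.9 to 725 in the other HBs, and 12666 CPM of erythroid markers, and its cholangiocyte, endothelium, neutrophil and smooth muscle sums were also the highest of all 20 libraries. For the members, calls that change without it are given below or in the closing sections. Counts and medians of the gene lists below were made with it included. CPM are scaled by TMM, a method that sets most genes equal between libraries. Calls are genes with an adjusted p under 0.05 in edgeR's quasi-likelihood test, adjusted by Benjamini-Hochberg over all genes tested. Changes are log2 fold changes with their SE. The labels do not say that libraries of a group came from separate litters or cages, so the p-values measure the spread between these libraries.

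Hif1a and Egln3 mRNA were higher in HBs on DDDA than in those on the standard diet, Egln3 by 3.66-fold and Hif1a by 1.70-fold, and no other member was called. In livers the diet went with higher Hif1a and Bnip3, by 1.43-fold and 1.54-fold. Of the 9 members that passed the filter on low counts, 2 were called in HBs, against 0.298% of all 14082 genes tested (0.0994% called higher and 0.199% called lower). The members were chosen with earlier results of these data known, so these shares are a description and not a test. Without DT2264 the genes called numbered 123 in place of 42, and the same 2 members were called. Leaving out any other one of the 10 HBs, or adding sex to the fit, lost both calls. In livers 2 of 9 were called, against 7.34% of 12803 genes (4.27% called higher and 3.07% called lower). With 1 liver left out the Hif1a call was lost in 8 of 10 fits and the Bnip3 call in 0. Car9 did not pass the filter in any comparison.

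**Figure D1:**
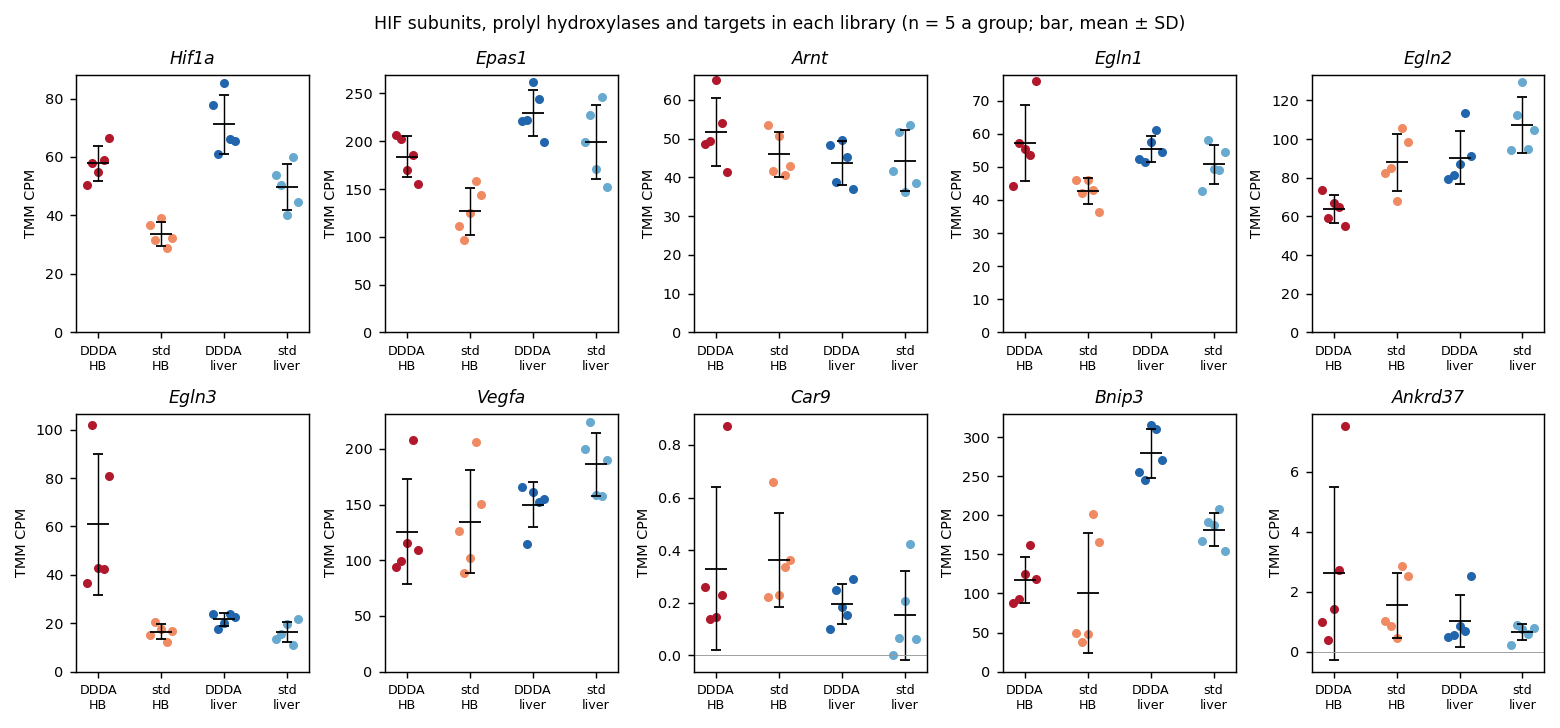
TMM-scaled CPM (y axes, linear) of the 10 members in each library, with DDDA and standard diet (std) HBs and livers on the x axes, points for libraries and bars for the mean ± SD of 5. Hif1a and Egln3 do not overlap between the diets in HBs (50.4 to 66.6 against 28.7 to 39.1 CPM, and 36.5 to 102 against 12.4 to 20.6 CPM), and Bnip3 in standard diet HBs falls into 3 low and 2 high libraries.

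Hif1a (chr12:73901324-73947554 in the table, plus strand) encodes the widely expressed alpha subunit. It had 50.4, 58.0, 54.9, 59.1 and 66.6 CPM in DDDA HBs DT3167, DT3168, DT2270, DT2277 and DT2264, against 36.7, 31.7, 39.1, 28.7 and 32.3 CPM in standard diet HBs s1758, s1799, s1800, s2138 and s2139. Every DDDA HB was above every standard diet HB, which held for 2 of 9 members and for 2.46% of all genes tested, with 2.05% lower without overlap. The change was 0.77 ± 0.13 on the log2 scale (adjusted p = 0.0416, edgeR), and the exact permutation test gave p = 0.00794, the smallest that 5 against 5 allows. Without DT2264 the change was 0.70 (edgeR adjusted p = 0.0369), but the call was lost without any other one of the 10 HBs (adjusted p 0.0501 to 0.139) with sex in the fit (0.71, adjusted p = 0.0911) and with library totals in place of TMM (0.68, adjusted p = 0.0871). The 4 DDDA HBs of females had 50.4 to 66.6 CPM, against 31.7 and 39.1 in the 2 standard diet HBs of females, and the DDDA HB of a male had 54.9 CPM, against 28.7 to 36.7 in the 3 of males. In bulk tissue more cells that express a gene and more RNA per cell cannot be told apart.

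In livers Hif1a had 77.8, 61.0, 85.4, 66.3 and 65.5 CPM on DDDA (DL01 to DL05), against 53.7, 50.5, 40.1, 60.05 and 44.7 CPM on the standard diet (c1, c12, c17, c4 and c7). The groups did not overlap, though DL02 at 61.0 was close to c4 at 60.05, and 5.05% of all genes were higher and 3.93% lower without overlap in this comparison. The change was 0.52 ± 0.13 (adjusted p = 0.0385, edgeR). It ranged from 0.42 to 0.58 with 1 liver left out and kept its call only without c4 or without DL02. The sexes were not balanced between the diets. The 2 DDDA livers of females had 61.0 and 77.8 CPM, against 40.1 to 50.5 in the 3 standard diet livers of females. The 3 DDDA livers of males had 65.5 to 85.4 CPM, against 53.7 and 60.05 in the 2 of males on the standard diet. The diet response of Hif1a in HBs minus that in livers was 0.26 ± 0.17 (adjusted p = 0.882, edgeR with all 20 libraries), so a difference between the tissues was not shown.

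Epas1 (chr17:86753864-86833410, plus strand) encodes HIF-2α, the alpha subunit known from endothelium and from erythropoietin control. Its levels were 207, 202, 170, 185 and 155 CPM in DDDA HBs, against 111, 96.7, 125, 158 and 144 CPM in standard diet HBs, in the same order of libraries as for Hif1a. Only s2138, at 158 CPM, lay within the range of DDDA HBs, just above DT2264. The change of 0.53 ± 0.15 was not called (adjusted p = 0.143, edgeR), but it was called by DESeq2 (adjusted p = 0.0377) and with all 20 libraries in one fit (edgeR adjusted p = 0.0458). Endothelial markers (12 genes) summed to 39.4 to 591 CPM in DDDA HBs, with DT2264 the highest, and to 98.2 to 221 CPM in standard diet HBs, with s2138 the highest. Epas1 was lowest in DT2264 among DDDA HBs and highest in s2138 among standard diet HBs, and the part of endothelial cells in Epas1 levels was not tested. In livers Epas1 had 221, 222, 262, 244 and 199 CPM on DDDA, against 199, 227, 171, 246 and 153 CPM on the standard diet. These ranges overlapped, with a change of 0.21 ± 0.14 (adjusted p = 0.392, edgeR).

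Arnt (chr3:95434368-95497240, plus strand), the beta subunit that also pairs with the aryl hydrocarbon receptor, was the steadiest of the factors on the TMM scale. It ranged from 41.5 to 65.1 CPM in DDDA HBs and from 40.8 to 53.6 CPM in standard diet HBs, and from 37.0 to 49.7 CPM in DDDA livers and from 36.3 to 53.4 CPM in standard diet livers. The groups overlapped in both tissues. Its changes with diet were 0.16 ± 0.13 in HBs (adjusted p = 0.580) and -0.01 ± 0.13 in livers (adjusted p = 0.972, edgeR). With library totals in place of TMM, Arnt was called higher in HBs than in livers on both diets. The change was 0.76 on the standard diet (edgeR adjusted p = 0.000736) and 0.90 on DDDA (edgeR adjusted p = 0.000162).

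Per length, in the TPM of the deposited table, Epas1 was above Hif1a in all 20 libraries. The ratio of Epas1 to Hif1a TPM was 2.16 to 3.81 in DDDA HBs, 2.80 to 5.10 in standard diet HBs, 2.63 to 3.41 in DDDA livers and 3.17 to 4.17 in standard diet livers. The highest ratio, 5.10, was in s2138.

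The prolyl hydroxylases differed among themselves. Egln3 (chr12:54178981-54203874, minus strand) is, like Egln1, a HIF-induced family member. It had 36.5, 102, 42.6, 42.2 and 80.8 CPM in DDDA HBs DT3167, DT3168, DT2270, DT2277 and DT2264. Standard diet HBs had 15.1, 20.6, 17.4, 12.4 and 16.8 CPM. The lowest DDDA HB was above the highest standard diet HB, and DT3168 and DT2264 were far above the other 3 DDDA HBs. The change was 1.87 ± 0.31 (adjusted p = 0.0416, edgeR; exact permutation p = 0.00794). Hif1a and Egln3 are in a list the study chose on these libraries, so their direction is not independent evidence.

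DT3168 was the one DDDA HB read on a flow cell of its own with 1 DDDA liver, and without it the Egln3 change was 1.63 (adjusted p = 0.0582, edgeR). Without DT2264 it was 1.73 and kept its call (edgeR adjusted p = 0.0376), whereas without any other one of the 10 HBs the adjusted p was 0.0504 to 0.139. With sex in the fit it was 1.66 (edgeR adjusted p = 0.0911). The 4 DDDA HBs of females had 36.5 to 102 CPM, against 17.4 and 20.6 in the 2 standard diet HBs of females, and the DDDA HB of a male had 42.6 CPM, against 12.4 to 16.8 in the 3 of males.

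In livers Egln3 had 23.8, 17.7, 20.03, 23.9 and 22.7 CPM on DDDA, against 13.7, 15.7, 19.9, 11.2 and 21.6 CPM on the standard diet. Livers of the 2 diets overlapped, with a change of 0.41 ± 0.17 (adjusted p = 0.158, edgeR). The response in HBs exceeded that in livers by 1.49 ± 0.36, which had an unadjusted p of 0.000509 and an adjusted p of 0.590 over 14502 genes in edgeR's interaction test. No gene was called in that test (0.0%, with 877 genes, 6.05%, at an unadjusted p under 0.05), and DESeq2 called 11, none of them a member.

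Egln1 (chr8:124908586-124949319, minus strand) encodes PHD2, the main oxygen sensor among the hydroxylases. It had 44.2, 57.2, 55.2, 53.7 and 75.9 CPM in DDDA HBs, against 46.0, 42.2, 46.0, 43.0 and 36.3 CPM in standard diet HBs. The other 4 DDDA HBs exceeded all standard diet HBs, and DT3167 at 44.2 lay among them. The change was 0.42 ± 0.15 (adjusted p = 0.229, edgeR), and it was called with all 20 libraries in one fit (0.42, adjusted p = 0.0499). Without DT2264, its highest library, the change was 0.27 and not called. Livers ranged from 51.5 to 61.1 CPM on DDDA and from 42.7 to 58.2 CPM on the standard diet, with a change of 0.13 ± 0.09 (adjusted p = 0.381, edgeR).

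Egln2 (chr7:27158658-27166802, minus strand) encodes PHD1. In contrast to the other hydroxylases its values lay lower in DDDA HBs, at 73.7, 59.1, 66.8, 64.6 and 54.8 CPM, against 82.5, 84.9, 67.9, 106 and 98.6 CPM in standard diet HBs. Only DT3167, at 73.7, was above the lowest standard diet HB, s1800. The change of -0.48 ± 0.13 was not called by edgeR (adjusted p = 0.138) and was called by DESeq2 (-0.47, adjusted p = 0.0441). In livers Egln2 ranged from 79.2 to 114 CPM on DDDA and from 94.3 to 130 CPM on the standard diet, a change of -0.24 ± 0.12 (adjusted p = 0.232, edgeR).

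**Figure D2:**
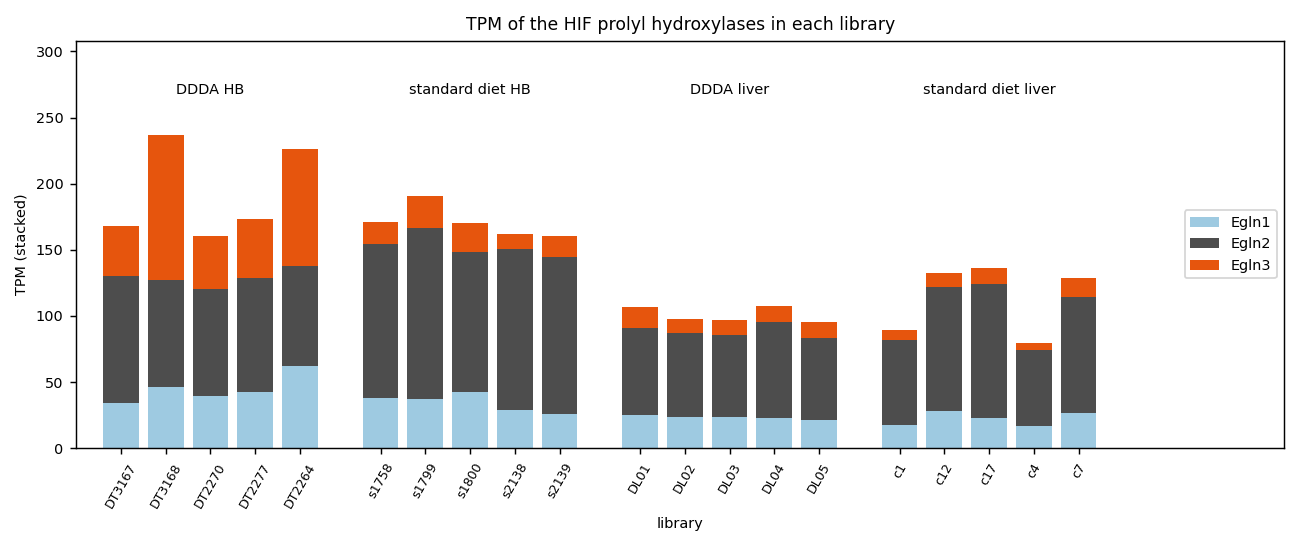
Stacked TPM (y axis, linear from 0) of Egln1, Egln2 and Egln3 in each of the 20 libraries (x axis, grouped by tissue and diet). Egln3 made up 22.4% to 46.4% of the summed TPM in DDDA HBs, against 6.91% to 12.9% in standard diet HBs.

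The make-up of the family per length therefore differed between HBs of the 2 diets. Egln3 was 22.4% to 46.4% of the summed TPM of Egln1, Egln2 and Egln3 in DDDA HBs (median 25.7%), against 6.91% to 12.9% in standard diet HBs (median 9.92%). In livers the share was 11.14% to 14.6% on DDDA (median 11.6%) and 6.64% to 11.05% on the standard diet (median 8.27%). These liver ranges did not overlap either, by a narrow margin. Egln3 TPM exceeded Egln1 TPM in all 5 DDDA HBs (ratio 1.04 to 2.39) and was below it in all 5 standard diet HBs (0.386 to 0.656) and in all livers (0.306 to 0.609). In DT3168 Egln3 TPM was also 1.36 times that of Egln2.

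**Figure D3:**
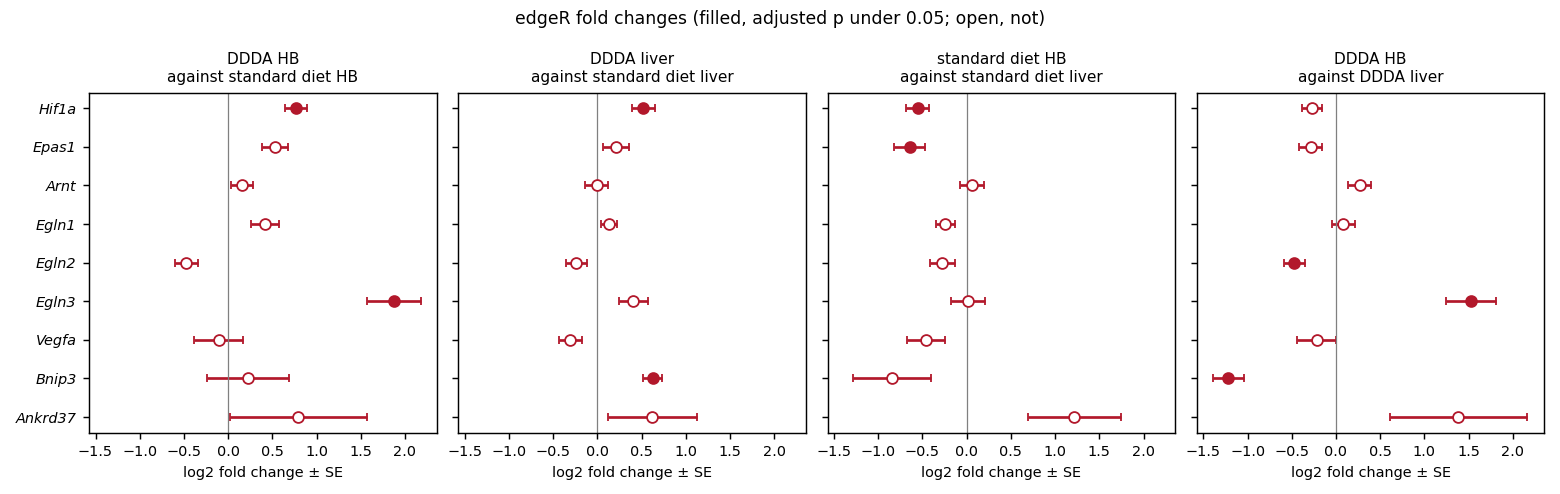
Log2 fold changes (x axes) with bars of ± SE from edgeR for the 9 members tested, in panels for the 2 diet and the 2 tissue comparisons. Filled points have an adjusted p under 0.05: Hif1a and Egln3 in HBs with diet, Hif1a and Bnip3 in livers with diet, Hif1a and Epas1 between tissues on the standard diet, and Egln2, Egln3 and Bnip3 between tissues on DDDA.

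Among the targets, Bnip3 (chr7:138890836-138909506, minus strand), a mitochondrial protein that recruits mitochondria to autophagy, changed with the diet in livers. DDDA livers had 255, 245, 315, 310 and 270 CPM, against 167, 192, 187, 208 and 155 CPM in standard diet livers. The lowest DDDA liver was above the highest standard diet liver. The change was 0.62 ± 0.11 (adjusted p = 0.0118, edgeR), and it was called without any one of the 10 livers (0.54 to 0.67, adjusted p 0.0155 to 0.0408). It was not called with all 20 libraries in one fit (0.62, adjusted p = 0.398), in which the spread of the HBs enters.

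In HBs Bnip3 had 88.3, 92.5, 126, 162 and 119 CPM on DDDA, against 49.7, 37.5, 48.6, 202 and 165 CPM on the standard diet. The standard diet HBs formed 3 low libraries and 2 high ones, s2138 and s2139, with the DDDA HBs between them. The change was 0.23 ± 0.46 (adjusted p = 0.846, edgeR), and it ran from 0.02 without s1799 to 0.63 without s2138, with no call. Without DT2264 and DT2277 it was -0.0031. The diet response of HBs minus that of livers was -0.40 ± 0.50 (adjusted p = 0.928, edgeR).

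Vegfa (chr17:46016993-46032377, minus strand), the main growth factor of blood vessels, had 94.3, 99.6, 116, 208 and 110 CPM in DDDA HBs, against 126, 88.3, 102, 206 and 151 CPM in standard diet HBs. DT2277 stood above the other DDDA HBs. The change was -0.10 ± 0.28 (adjusted p = 0.889, edgeR) and had the other sign, 0.10, without s2138. In livers Vegfa had 166, 115, 161, 153 and 155 CPM on DDDA, against 200, 224, 159, 158 and 190 CPM on the standard diet, a change of -0.31 ± 0.13 (adjusted p = 0.166, edgeR). DL02 was the lowest of all livers.

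Ankrd37 (chr8:45996902-46000823, minus strand), an ankyrin repeat protein used as a marker of HIF activity, was low. It had 0.997, 0.384, 1.42, 2.71 and 7.55 CPM in DDDA HBs, against 1.01, 0.843, 0.460, 2.87 and 2.53 CPM in standard diet HBs. The change of 0.80 ± 0.78 (adjusted p = 0.653, edgeR) rested on DT2264, without which it was -0.17. In livers Ankrd37 had 0.499, 0.560, 0.852, 0.683 and 2.54 CPM on DDDA, against 0.228, 0.879, 0.760, 0.593 and 0.798 CPM on the standard diet. The change of 0.62 ± 0.51 (adjusted p = 0.479, edgeR) became -0.03 without DL05, the highest liver. Ankrd37 shares 57 bases with Ufsp2 on the opposite strand, which had 11468 counts over all libraries against 625 of Ankrd37. Egln1 and Hif1a also overlap other genes, LOC108167562 with 173 counts and Gm15283 with 65, and whether counting used the strand is not given in the sources used here.

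Car9 (chr4:43507026-43513729, plus strand), a cell surface carbonic anhydrase that is a classic HIF-1 target, was near the limit of detection. It had 6, 5, 3, 6 and 22 counts in DDDA HBs, against 5, 18, 6, 7 and 8 counts in standard diet HBs. DDDA livers had 2, 4, 3, 2 and 4 counts, against 0, 1, 3, 5 and 1 counts in standard diet livers. The 0 counts of liver c1 allow up to 0.228 CPM, for counting error only. A difference with diet was not detectable at this depth (exact permutation p = 0.659 in HBs and 0.516 in livers). Arhgef39, on the opposite strand, shares 1744 bases with Car9 and had 948 counts over all libraries against 111 of Car9. DT2264 thus had the highest Hif1a, Egln1, Ankrd37 and Car9 of the DDDA HBs together with the highest stromal and erythroid marker sums, whose part in these values was not tested.

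**Figure D4:**
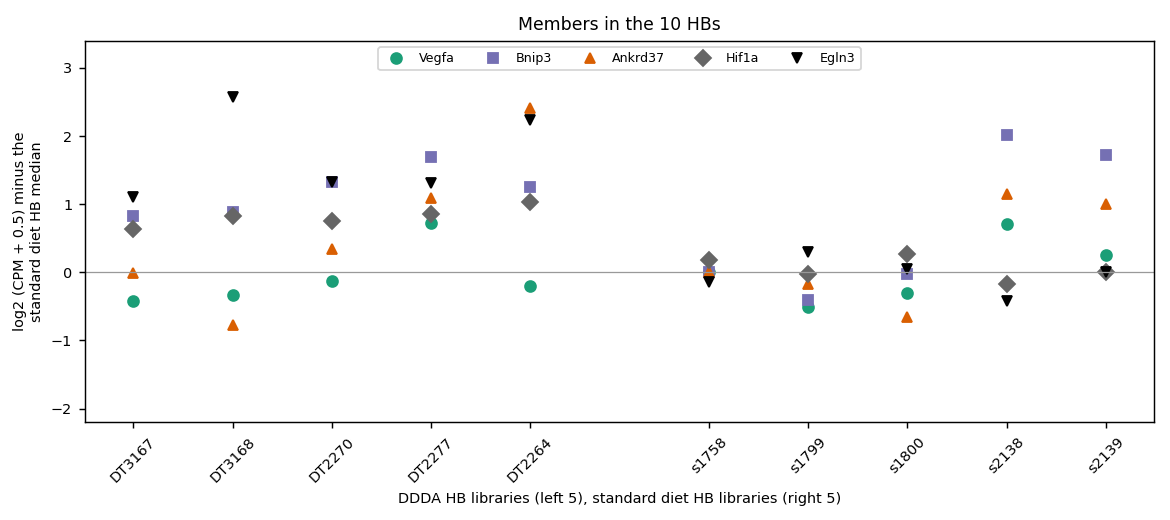
Log2(CPM + 0.5) of 5 members minus its median over standard diet HBs (y axis) in the 5 DDDA HBs and the 5 standard diet HBs (x axis). Egln3 and Hif1a are above 0 in every DDDA HB, and Bnip3, Ankrd37 and Vegfa are high in s2138 and s2139, where Hif1a and Egln3 are not.

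Within the standard diet HBs the targets and Hif1a did not vary together. Libraries s2138 and s2139 were the highest 2 for 5 of the 9 members tested, namely Epas1, Egln2, Vegfa, Bnip3 and Ankrd37, and s2138 was the lowest for Hif1a and Egln3. Over all 14082 genes tested these libraries were the highest 2 for 20.6% and the lowest 2 for 18.8%. They were the highest 2 for 7 of 21 other HIF targets of glucose use (33.3%), among them Pgk1, Pdk1 and Aldoc, and the lowest 2 for 1. Of 33 other targets they were the highest 2 for 7 (21.2%), among them Kdm3a, Ak4 and Bnip3l, and the lowest 2 for 5 (15.2%), which is near the shares of all genes. Of 16 genes of oxygen sensing they were the highest 2 for 3 and the lowest 2 for 1, and of 8 genes of the VEGF list the highest 2 for 0 and the lowest 2 for 3. Both were from males, as was s1758, which was low for Bnip3. Their hepatocyte marker sums, 42030 and 41308 CPM, were the highest 2 of the standard diet HBs, and the part of this in the target levels was not tested. This pair was noticed after the values were seen.

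Between the tissues, Hif1a and Epas1 were lower in standard diet HBs than in standard diet livers, but that direction depended on the scaling. With library totals in place of TMM the median of all genes moved to 0.70 in standard diet HBs against livers and to 0.73 in DDDA HBs against livers, and the members below are described relative to TMM. In standard diet HBs Hif1a was at 28.7 to 39.1 CPM, against 40.1 to 60.05 CPM in standard diet livers, with no overlap (-0.55 ± 0.13, adjusted p = 0.00336, edgeR; 0.15 with library totals). Epas1 was at 96.7 to 158 CPM in standard diet HBs, against 153 to 246 CPM in standard diet livers (-0.64 ± 0.17, adjusted p = 0.00798, edgeR; 0.04 with library totals). Of 9 members tested 2 were called, against 54.9% of 13830 genes (26.8% called lower). At an unadjusted p under 0.05 were 60.3% of all genes, and 20.3% were lower without overlap, as Hif1a was. Egln3 did not differ detectably on the TMM scale, at 12.4 to 20.6 CPM in standard diet HBs and 11.2 to 21.6 CPM in standard diet livers (0.01 ± 0.19, adjusted p = 0.968, edgeR). With library totals the Egln3 change was 0.69 and was called (edgeR adjusted p = 0.0239). Bnip3 was not called (-0.85 ± 0.44, adjusted p = 0.122, edgeR) and was called without s2138 (-1.25, adjusted p = 0.0204).

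On DDDA, Egln3 was higher in HBs than in livers and Bnip3 was lower, and both kept that direction with library totals. Egln3 had 36.5 to 102 CPM in DDDA HBs, against 17.7 to 23.9 CPM in DDDA livers (1.53 ± 0.29, adjusted p = 0.00151, edgeR; 2.19 with library totals). For Bnip3 the range was 88.3 to 162 CPM in DDDA HBs, against 245 to 315 CPM in DDDA livers (-1.22 ± 0.18, adjusted p = 0.000347, edgeR; -0.56 with library totals). Egln2 was at 54.8 to 73.7 CPM in DDDA HBs, against 79.2 to 114 CPM in DDDA livers (-0.47 ± 0.12, adjusted p = 0.00881, edgeR), and had the other sign, 0.18, with library totals. These 3 of 9 members were called, against 49.7% of 13415 genes (26.3% called higher and 23.4% called lower). At an unadjusted p under 0.05 were 56.4% of all genes, and 19.5% were lower without overlap, as Egln2 and Bnip3 were. Hif1a had 50.4 to 66.6 CPM in DDDA HBs, against 61.0 to 85.4 CPM in DDDA livers (-0.27 ± 0.11, adjusted p = 0.0739, edgeR). The Hif1a change was 0.38 with library totals, where it was called. Without DT2264 it was -0.32 and was also called (edgeR adjusted p = 0.0381). The tissue comparisons share libraries with the diet comparisons.

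Per length the members spanned a wide range. In DDDA HBs the median TPM was 182 for Bnip3, 97.5 for Epas1, 81.0 for Egln2, 70.6 for Vegfa, 44.5 for Egln3, 42.2 for Egln1, 33.6 for Hif1a, 31.9 for Arnt, 1.93 for Ankrd37 and 0.295 for Car9. Neighbours in this order overlapped in their ranges, except that Bnip3 was above Epas1 and Arnt above Ankrd37. In standard diet HBs Egln2 led with a median of 119 TPM, ahead of Bnip3 at 91.2, Vegfa at 89.8 and Epas1 at 68.1. Egln1 followed at 37.6, Arnt at 29.7, Hif1a at 20.4, Egln3 at 16.8, Ankrd37 at 1.61 and Car9 at 0.370, and the only neighbours whose ranges did not overlap were Epas1 and Egln1, and Egln3 and Ankrd37.

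Livers had Bnip3 first on both diets, with a median of 238 TPM in DDDA livers and 155 TPM in standard diet livers, and no other member overlapped with it. Epas1, Egln2 and Vegfa came next, with medians of 52.8 to 68.4 TPM in DDDA livers and 53.9 to 87.7 TPM in standard diet livers, above Egln1, Hif1a, Arnt and Egln3 at 12.03 to 23.6 TPM in DDDA livers and 10.3 to 22.6 TPM in standard diet livers. Ankrd37 and Car9 were below 2 TPM in every liver.

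The counts of the other genes of the pathway are set against all genes tested, of which 0.298% were called and 16.3% had an unadjusted p under 0.05 in HBs with the diet, and 7.34% and 24.8% in livers. Among 17 further genes of HIF oxygen sensing and degradation, edgeR called 0 of 16 tested in HBs with the diet (4 at an unadjusted p under 0.05; 3 called by DESeq2) and 2 of 15 in livers, both higher. These were Cul2, the scaffold of the von Hippel-Lindau ubiquitin ligase, with 55.8 ± 3.14 CPM in DDDA livers and 38.0 ± 7.77 CPM in standard diet livers (SD, n = 5 each), and Ube2d1, a ubiquitin-conjugating enzyme, with 12.7 ± 1.42 CPM in DDDA livers and 8.56 ± 1.20 CPM in standard diet livers (SD, n = 5 each). Cul2 changed by 0.56 (edgeR adjusted p = 0.0311) and Ube2d1 by 0.58 (adjusted p = 0.0240). The same 2 genes were called higher by DESeq2 in HBs, where Crebbp, a coactivator, was called lower.

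Of 21 HIF targets of glucose use, edgeR called 0 in HBs with the diet, with 9 at an unadjusted p under 0.05, 1 call by DESeq2 (Eno1, higher) and a median change of 0.54, against 0.06 over all genes tested. In livers 4 of 20 were called, and the median change was -0.01. Pfkfb4, which sets the level of a glycolytic activator, had 4.16 ± 1.93 CPM in DDDA livers and 1.33 ± 0.304 CPM in standard diet livers (SD, n = 5 each), with overlap between the diets; the change was 1.64 (adjusted p = 0.0313, edgeR). Gbe1, the glycogen branching enzyme, changed by 0.69 (adjusted p = 0.0324) and Eno1, an enolase, by 0.49 (adjusted p = 0.0474, edgeR). Both overlapped between the diets. Gapdh, a glycolytic enzyme, was lower without overlap. It had 685 ± 109 CPM in DDDA livers and 990 ± 97.2 CPM in standard diet livers (SD, n = 5 each). The Gapdh change was -0.52 (adjusted p = 0.0301, edgeR).

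Of 35 other targets, edgeR called 0 of 33 in HBs (5 at an unadjusted p under 0.05; 1, Bhlhe40, called higher by DESeq2), with a median change of 0.32, and 2 of 27 in livers, with a median of 0.14. Both were higher: Pfkfb4, which is in both target lists, and Insig2, a brake on sterol synthesis, with 218 ± 46.9 CPM in DDDA livers and 134 ± 16.2 CPM in standard diet livers (SD, n = 5 each; 0.71, adjusted p = 0.0261, edgeR). Of other carbonic anhydrases 0 of 10 were called in HBs (0 at an unadjusted p under 0.05; 0 by DESeq2) and 1 of 9 in livers, where the mitochondrial Car5a was lower (-0.48, adjusted p = 0.0364, edgeR). No gene of the VEGF family and receptors, the bHLH-PAS family or the mitophagy receptors and kinases was called by edgeR with the diet in either tissue. The tests covered 8, 8 and 9 genes in HBs, with 0, 1 and 1 at an unadjusted p under 0.05 and 0 called by DESeq2. In livers they covered 7, 6 and 9 genes, with 2, 1 and 2 at an unadjusted p under 0.05 and 0, 1 and 2 called by DESeq2, namely Arnt2 of the bHLH-PAS family and Bnip3l and Phb2 of the mitophagy list.

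Between the tissues 54.9% of all genes were called on the standard diet (28.2% higher and 26.8% lower) and 49.7% on DDDA (26.3% higher and 23.4% lower), so more calls in the lists are read against those shares. For standard diet HBs against livers the calls were 7 higher and 4 lower of 16 for oxygen sensing, 4 and 7 of 21 for glucose use, 13 and 11 of 32 for other targets, 2 and 3 of 8 for the VEGF list, 4 and 0 of 8 for bHLH-PAS, 2 and 7 of 10 for carbonic anhydrases and 2 and 5 of 9 for mitophagy. For DDDA HBs against livers they were 7 and 2 of 16, 3 and 5 of 21, 8 and 7 of 32, 1 and 1 of 8, 3 and 0 of 7, 1 and 6 of 9, and 2 and 4 of 9. Stc2, a secreted glycoprotein, averaged 15.4 CPM in standard diet HBs and 0.131 CPM in standard diet livers (6.85, adjusted p = 1.05e-07, edgeR). Pgk1, a glycolytic enzyme, averaged 180 CPM in standard diet HBs and 435 CPM in standard diet livers (-1.26, adjusted p = 1.59e-05), and Kdr, the main VEGF receptor of endothelium, 22.9 CPM in standard diet HBs and 75.6 CPM in standard diet livers (-1.71, adjusted p = 0.000154). Endothelial markers summed to 98.2 to 221 CPM in standard diet HBs and 273 to 361 CPM in standard diet livers, and their part in the Kdr difference was not tested.

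The gene whose pattern over the 20 libraries was most like that of Hif1a was Reep3, with a root mean square difference of centred log2(CPM + 0.5) of 0.14, against an SD of 0.44 for Hif1a itself. For Egln3 (SD 0.83) the closest genes were Cxx1a and Pcdhgb7, at 0.44 and 0.47, which is not close beside that SD. Pcdhgb7 averaged 2.09 CPM in DDDA HBs, 0.122 in standard diet HBs, 0.401 in DDDA livers and 0.0548 in standard diet livers. Its likeness thus rests on low counts. For Epas1 (SD 0.39) the closest genes were Atg4c and Crbn, at 0.18 for both. Reep3 averaged 99.4 ± 11.0 CPM in DDDA HBs, 67.8 ± 8.24 in standard diet HBs, 150.1 ± 12.1 in DDDA livers and 101 ± 15.3 in standard diet livers (SD, n = 5 each), the same order of groups as Hif1a except that Reep3 in DDDA HBs and in standard diet livers was nearly equal.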

How the data were processed

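RNA-Seq of 20 libraries in 4 groups was used. The authors deposited whole-number read counts per gene, with no normalization. The authors also deposited TPM and RPKM values, made from these counts per length and library size. The table's CPM columns and the authors' fold changes, p-values and FDR were not used, and 0 columns belong to other samples. The submitters' processing notes give GRCm38.p6. Alignment settings were not stated. The column names of standard diet libraries mention pairing and trimming, those of DDDA libraries do not.

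The members and gene lists were chosen with earlier results of these data known. The test was that of edgeR 4.0.16 with limma 3.58.1 under R 4.3.3, on counts with TMM, filterByExpr and the quasi-likelihood F-test, with Benjamini-Hochberg adjustment over all genes kept. Each fit held the 2 groups compared, and the interaction all 20 libraries. CPM in the text are TMM-scaled over the 20 libraries. Single values were compared by two-sided exact permutation tests of log2(CPM + 0.5). TPM served only for levels between genes. Alternatives were DESeq2 1.42.0, RLE scaling, genes with at least 1 count, 1 fit of all libraries, sex as a covariate, a length trend removed (lowess span 0.3, prior count 2), RPKM in place of TPM, libraries left out and, added after seeing the data, library totals without scaling factors. The test was run on simulated counts with known changes. These counts had no scaling factors between libraries and the same spread per gene in every group. They therefore do not bear on calls that depend on scaling or on single libraries.

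All members were described. From each list up to 6 genes called in a diet comparison were eligible for naming, by smallest p, and up to 3 in a tissue comparison, of which a few are named. Genes named as highest in s2138 and s2139, and those called by DESeq2 alone in a diet comparison, were chosen after their values were seen. Likeness was ranked among genes with an SD at least 0.5 times that of the member. One likeness result is not reported here. Marker lists were hepatocyte, hepatoblastoma, endothelium, stellate cell and fibroblast, smooth muscle, macrophage, neutrophil, cholangiocyte, erythroid and lymphocyte. Promoters are from RefSeq. Python 3.11.15 with pandas 2.3.3, numpy 2.4.6, scipy 1.17.1 and matplotlib 3.10.9 served for tables and plots.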

Additional observations from a re-analysis of the deposited data

Results flagged for a closer look

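The highest or lowest library of each group of 5 was compared with the others for all 10 members (40 groups, of which chance would set about 1 in 20 apart), by the gap to its neighbour divided by the range of log2(CPM + 0.5), and 4 groups exceeded 0.71. Vegfa was high in DDDA HB DT2277, at 208 CPM with the others at 94.3 to 116 (ratio 0.744). It was low in DDDA liver DL02, at 115 CPM with the others at 153 to 166 (ratio 0.769). Car9 was high in DDDA HB DT2264, at 0.874 CPM with the others at 0.137 to 0.260 (ratio 0.770), which are 22 counts and 3 to 6 counts. Ankrd37 was high in DDDA liver DL05, at 2.54 CPM with the others at 0.499 to 0.852 (ratio 0.728). No member was called for a difference in diet response between HBs and livers.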

How the results depend on the processing

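Leaving out 1 library gave 0 to 2 members called for DDDA HBs against standard diet HBs (2 with all), 1 to 2 for livers (2), 2 to 4 for standard diet HBs against livers (2), 3 to 5 for DDDA HBs against livers (3) and 0 for the difference in response (0). In HBs with the diet 4 members were called by DESeq2 and with all 20 libraries in one fit, 1 with every gene of at least 1 count, with library totals and without DT2264 and DT2277, and 0 with sex as a covariate and without DT3168. In livers 1 was called with all 20 libraries, with library totals and without DL03. Between tissues on the standard diet 4 were called with sex and 5 with library totals, and on DDDA 5 with the length trend removed and without DT2264 and DT2277, and 7 with library totals. RPKM in place of TPM changed the order of 1 pair of medians, Bnip3 and Vegfa in standard diet HBs.

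Signs turned as follows, and the cause was not tested. With library totals, standard diet HBs against livers gave 0.15 for Hif1a, 0.039 for Epas1, 0.44 for Egln1, 0.39 for Egln2 and 0.19 for Vegfa, and DDDA HBs against livers gave 0.38 for Hif1a, 0.36 for Epas1, 0.18 for Egln2 and 0.42 for Vegfa. With sex, Vegfa was 0.087 in HBs with the diet and Bnip3 0.065 in the difference in response. Without DT2264 and DT2277, Bnip3 was -0.0031 and Ankrd37 -0.76 in HBs with the diet, Egln1 -0.058 and Ankrd37 -0.12 in DDDA HBs against livers, and Vegfa -0.065 and Ankrd37 -1.36 in the difference in response. With 1 library left out, Vegfa ran from -0.37 to 0.098 and Ankrd37 from -0.17 to 1.11 in HBs with the diet, Arnt from -0.090 to 0.053 and Ankrd37 from -0.028 to 0.81 in livers, Arnt from -0.012 to 0.13 and Egln3 from -0.10 to 0.12 between tissues on the standard diet, Egln1 from -0.039 to 0.15 between tissues on DDDA, and Vegfa from -0.052 to 0.41, Bnip3 from -0.60 to 0.018 and Ankrd37 from -0.78 to 0.78 in the difference in response. None of these was called with all libraries, except Hif1a and Epas1 on the standard diet and Egln2 on DDDA.

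Without 1 library, calls were gained in the tissue comparisons: Egln1 without c1 (-0.31), Vegfa (-0.65) and Bnip3 (-1.25) without s2138 and Ankrd37 without s1800 (1.46) on the standard diet, and Hif1a (-0.32) and Arnt (0.34) without DT2264 and Vegfa without DT2277 (-0.49) on DDDA. Over all genes, 42 were called in HBs with the diet, 741 by DESeq2, 680 with all 20 libraries, 109 with library totals, 25 with every gene of at least 1 count, 18 with sex, 23 without DT3168, 175 without DT2264 and DT2277, and 1 (without s2139) to 123 (without DT2264) with 1 library left out. In livers 940 were called, 1675 by DESeq2, 339 with all 20 libraries, 1440 with sex, 483 with library totals, and 328 to 858 with 1 library left out, the lowest without DL03. For the difference in response 0 were called, 11 by DESeq2 and 25 without DT2264 and DT2277. No paired analysis was possible because the labels give the groups no shared replicate numbers. With 5 libraries a group, flow cell and diet confounded and Car9 at 0 to 22 counts a library, small changes could not be resolved.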
